A study of Homo sapiens with 32 samples.

Results

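Places in the genome where m6A-enriched RNA came from both DNA strands were described in A375 cells, an established human melanoma line with mutant BRAF. The members are peaks of m6A enrichment that had, in the same library's peak list, a peak on the other strand with its summit within 1000 bp. By this rule 7681 of 180114 peaks in 4 lists were members, and 172433 were not. The lists held 1999 and 2043 such peaks in the shMETTL3 libraries and 1756 and 1883 in the shControl libraries. Members were chosen by measured values, the strand and summit position of the called peaks, so the number and spacing of members are a description. Any plus-strand and minus-strand peak within this distance was counted as 1 pair, and a peak could belong to several pairs.

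The 4 libraries are m6A immunoprecipitations (MeRIP-seq) of ribosome-depleted, chromatin-associated RNA, 2 from cells with a short hairpin RNA against METTL3 and 2 from cells with a control hairpin. Per the labels' protocols a methylated spike-in was added before fragmentation, a commercial m6A antibody kit was used, and the library kit keeps strand. The series holds 32 samples in 16 groups, and its title names CENPA and m6A on centromeric RNA. The labels give the cells of each library as A375 and do not say whether replicates are separate cultures, so the spread between libraries may be technical. Untreated cells, more than 1 hairpin per target and rescue of METTL3 were not analysed here. The peak names of the shMETTL3 lists carry a knockout prefix where the titles name a hairpin. METTL3, on chromosome 14, had 5 peaks in each of the 4 lists and no opposite-strand pair, and peak lists hold no RNA level with which to check the knockdown. Of the fixed markers, all 5 of a dedifferentiated melanoma list had a peak in every list (AXL, NGFR, EGFR, SOX9 and TNC). Of 9 melanocyte lineage genes only MITF and MC1R had one, and keratinocyte, fibroblast and leukocyte genes, 3 of each, had none.

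N6-methyladenosine is written on nascent RNA by a complex whose catalytic subunit is METTL3, mostly at adenosines within the DRACH consensus. RNA on the chromatin holds short-lived transcripts that are scarce in total RNA, among them RNA made upstream and antisense of promoters, antisense long noncoding RNAs, enhancer RNAs and read-through RNA beyond gene ends. Where 2 genes start back to back, where an antisense RNA crosses a gene, or where 2 genes end tail to tail, RNA of both strands comes from nearly the same place.

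The promoters of named pairs that lie at annotated starts are shown because the paired summits lie close to these starts. The bases are those of RefSeq on GRCh38.p14, the same build as the hg38 of the peak lists, read 5′ to 3′ on the strand of each gene. Capitals mark the 50 bases from the annotated start, and lower case the 250 bases before it. NAA11 (chr4:79326012-79326311, minus strand), TRHDE (chr12:72272120-72272419, plus strand), TRHDE-AS1 (chr12:72273460-72273759, minus strand) and ZEB1 (chr10:31318966-31319265, plus strand) have these sequences.
NAA11: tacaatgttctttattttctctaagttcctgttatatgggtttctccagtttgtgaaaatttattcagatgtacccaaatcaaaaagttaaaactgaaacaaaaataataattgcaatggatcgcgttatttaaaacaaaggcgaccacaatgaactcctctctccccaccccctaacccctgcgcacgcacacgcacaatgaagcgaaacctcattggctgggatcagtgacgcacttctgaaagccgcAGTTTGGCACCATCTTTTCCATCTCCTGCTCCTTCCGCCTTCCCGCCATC
TRHDE: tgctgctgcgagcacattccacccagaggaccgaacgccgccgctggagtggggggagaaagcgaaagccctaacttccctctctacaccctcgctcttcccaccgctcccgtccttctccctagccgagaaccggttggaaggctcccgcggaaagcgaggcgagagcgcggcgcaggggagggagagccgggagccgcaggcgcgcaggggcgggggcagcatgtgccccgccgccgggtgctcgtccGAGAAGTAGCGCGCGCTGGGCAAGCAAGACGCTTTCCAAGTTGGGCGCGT
TRHDE-AS1: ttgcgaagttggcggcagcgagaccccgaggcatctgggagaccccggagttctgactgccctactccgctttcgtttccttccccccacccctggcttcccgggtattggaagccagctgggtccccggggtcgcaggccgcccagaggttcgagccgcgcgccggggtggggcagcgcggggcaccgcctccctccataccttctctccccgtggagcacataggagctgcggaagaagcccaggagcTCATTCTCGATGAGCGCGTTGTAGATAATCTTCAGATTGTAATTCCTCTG
ZEB1: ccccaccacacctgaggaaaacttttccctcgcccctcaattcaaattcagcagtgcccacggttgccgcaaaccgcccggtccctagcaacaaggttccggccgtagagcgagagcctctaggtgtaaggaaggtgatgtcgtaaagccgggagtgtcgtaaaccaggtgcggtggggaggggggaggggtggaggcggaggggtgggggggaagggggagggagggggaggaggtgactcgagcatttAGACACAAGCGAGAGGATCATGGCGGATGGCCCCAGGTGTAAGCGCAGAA
Their GC content was 43.7% for NAA11, 69% for TRHDE, 64% for TRHDE-AS1 and 61.7% for ZEB1, with 11, 34, 24 and 17 CpG sites. The motif GGACT, a common form of the m6A consensus, was searched on both strands and is in none of these 4 windows. All paired summits lie outside the printed bases, the nearest 62 bp after the ZEB1 start. The search therefore does not describe the sequence at the summits. Over all 35116 promoters of the RefSeq table, 25.3% held it on the gene's strand and 25.3% on the other strand. It was present on the gene's strand in 27.3% of 509 promoters of genes whose own start lay at pairs with 2 starts, and in 28.2% of 266 promoters of genes at pairs with 1 start. Median GC content was 63.7% and 64.5% in these promoter groups, against 58.7% over all promoters, and the median number of CpG sites was 25 in both, against 14 over all promoters. Peaks themselves are not printed, since the genome sequence was not used here.

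Paired peaks made up a larger part of the shMETTL3 lists. Their share was 4.53% and 4.75% of peaks in the shMETTL3 lists, against 3.87% and 3.95% in the shControl lists. Both shMETTL3 values lay above both shControl values, with means of 4.64% ± 0.157 and 3.91% ± 0.0535 (SD, n = 2 each). The difference was 0.733 percentage points, with p = 0.333 in the exact two-sided permutation test, the smallest p that 2 against 2 libraries allow. No comparison of libraries given here can therefore pass the threshold of 0.05. The shMETTL3 lists held fewer peaks in all, 44108 and 42969, against 45345 and 47692 in the shControl lists. Read depth is unknown, so whether depth moves with this share was not tested. When every list was reduced to equal length, the difference was 0.879 points.

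The lists held 1209 and 1254 pairs in the shMETTL3 libraries, against 1078 and 1153 in the shControl libraries. The groups did not overlap, and the mean difference was 116 pairs (exact two-sided permutation p = 0.333, n = 2 each). It was 231 pairs in lists of equal length, but 64.5 at a distance of 2000 bp, where the groups overlapped (exact permutation p = 1). Without shMETTL3 replicate 2 it was 93.5 pairs (exact permutation p = 0.667). Counting only peaks that were each other's nearest left 861 and 872 pairs in the shMETTL3 lists, against 729 and 794 in the shControl lists. The peaks of a pair overlapped in 55.4% and 55.4% of shMETTL3 pairs, against 49.9% and 51.0% of shControl pairs. The median summit distance was 392 and 397.5 bp in the shMETTL3 lists, against 406.5 and 406 bp in the shControl lists. No pair lay on the mitochondrial genome, whose strands are both transcribed in full.

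Fold is the deposited enrichment of the peak caller, a ratio. Each list has its own fold scale, so where folds of both groups stand side by side, a gap or an overlap is a description and no change is read from it. Nearest opposite summits at 900 to 1000 bp were found for 99 and 128 peaks in the shMETTL3 lists, with median folds of 3.70 and 3.46, and for 117 and 94 peaks in the shControl lists, with 3.87 and 3.63. Beyond 1000 and up to 1100 bp there were 98 and 110 peaks in the shMETTL3 lists, with 3.83 and 3.94, and 81 and 103 in the shControl lists, with 3.41 and 3.53. Just inside the limit the median was lower than just outside it in both shMETTL3 lists and higher in both shControl lists.

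Paired peaks had median folds close to those of other peaks, and they were wider. Their median fold was 3.96 and 3.99 in the shMETTL3 lists and 3.86 and 3.67 in the shControl lists, against 3.92, 3.93, 3.84 and 3.64 for the unpaired peaks of the same lists. The paired median was higher in 4 of 4 lists, by 0.0381 on average (exact two-sided sign-flip permutation p = 0.125, the smallest that 4 lists allow). The sign turned with a distance of 2000 bp (-0.01), with peaks of fold 4 or more (-0.04) and with peaks of −log10 q of 20 or more (-0.13). Median widths of paired peaks were 298 and 300 bp in the shMETTL3 lists and 282 and 284 bp in the shControl lists, against 266, 267, 255 and 258 bp for unpaired peaks. The folds of the peaks of a pair were nearly unrelated, with Spearman correlations of 0.0882 and 0.103 over the shMETTL3 pairs and 0.0957 and 0.118 over the shControl pairs. Pairs of a list share its library and sometimes a peak, so these are descriptions.

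Pairs fell mainly into 2 kinds of place, near the edge of an annotated gene and inside a gene body. An edge pair had either summit within 1000 bp of the start or end of any of 59712 RefSeq gene spans. There were 615 and 623 edge pairs in the shMETTL3 lists, against 515 and 549 in the shControl lists. Inside a single gene lay 484 and 517 pairs in the shMETTL3 lists, against 466 and 502 in the shControl lists. Edge pairs differed between the groups without overlap, by 87 pairs on average, while pairs inside a gene overlapped between the groups. Unpaired peaks also lay near an edge more often in the shMETTL3 lists, by 1.42 percentage points on average and without overlap. The part of this background in the pair counts was not tested. Inside several overlapping genes there were 67 and 68 pairs in the shMETTL3 lists, against 55 and 63 in the shControl lists. Outside genes lay 43 and 46 pairs in the shMETTL3 lists, against 42 and 39 in the shControl lists.

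**Figure D1:**
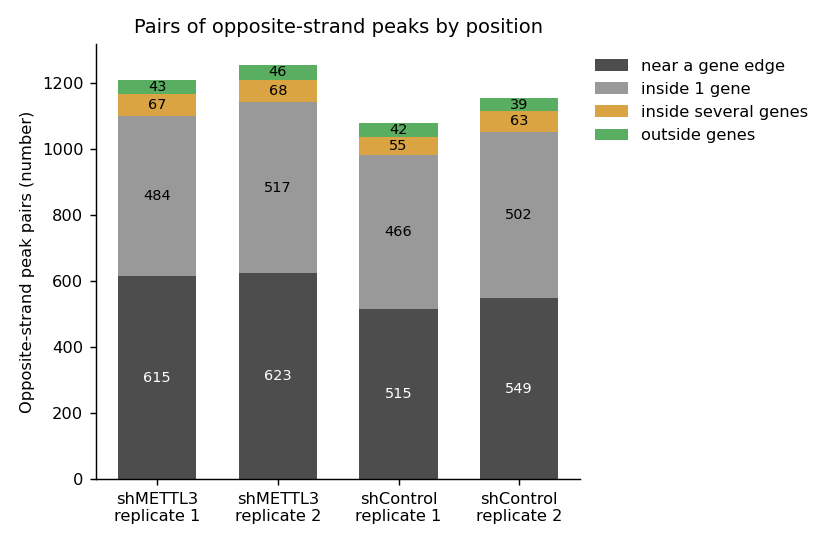
Number of opposite-strand peak pairs in each of the 4 lists, stacked by position relative to RefSeq gene spans (vertical axis: number of pairs, starting at 0). Edge pairs are 615 and 623 in the shMETTL3 lists, against 515 and 549 in the shControl lists, and pairs inside 1 gene overlap between the groups.

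The edge share was 50.9% and 49.7% of pairs in the shMETTL3 lists, against 47.8% and 47.6% in the shControl lists, a mean difference of 2.58 points (exact two-sided permutation p = 0.333, n = 2 each). The difference was -5.84 points with peaks of fold 4 or more and 6.53 points with −log10 q of 20 or more, so its sign depends on the filter. It was 1.58 points at 500 bp (p = 0.667) and 1.03 points with mutually nearest peaks (p = 1), both exact permutation tests in which the groups overlapped. Of single peaks, 48.4% and 46.6% of the paired ones lay near a gene edge in the shMETTL3 lists and 46.4% and 45.7% in the shControl lists. Of the unpaired peaks, 19.6%, 19.8%, 18.4% and 18.2% did in the same lists. The paired share was higher in 4 of 4 lists, by 27.8 points on average. Members were chosen by summit position, from which the edge share is also read, so this is a description.

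At edges, the order of the summits along the chromosome followed the kind of edge. The kinds were set by annotated starts and ends near each summit, so this order partly follows from the definition and is a description. Strand-matched starts came from the RefSeq promoter table, which gives 27304 genes a strand, and each summit was asked whether a start or end of a gene on its own strand lay within 1000 bp. At pairs with 2 starts the plus-strand summit had the higher coordinate in 85.8% of 148 and 86.3% of 117 shMETTL3 pairs, against 83.5% of 97 and 83.1% of 124 shControl pairs. The median signed distance, plus minus minus summit, was 585.5 and 590 bp in the shMETTL3 lists, against 621 and 545.5 bp in the shControl lists. The peaks of most of these pairs therefore point away from each other, and the groups overlapped in the number of pairs.

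At pairs with 2 ends the order was turned round. The plus-strand summit had the higher coordinate in 18.2% of 33 and 26.3% of 38 shMETTL3 pairs, against 29.3% of 58 and 28.6% of 56 shControl pairs. Median signed distances were -571 and -520 bp in the shMETTL3 lists, against -363 and -472.5 bp in the shControl lists. The shMETTL3 lists had fewer such tail-to-tail pairs than the shControl lists, by 21.5 on average and without overlap (exact two-sided permutation p = 0.333, n = 2 each). The difference shrank to -1.5 pairs with peaks of fold 4 or more, to -7.5 with −log10 q of 20 or more and to -10 at a distance of 500 bp.

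Pairs with 1 start were more numerous in the shMETTL3 lists, with 146 and 163 in the shMETTL3 lists, against 119 and 112 in the shControl lists. The mean difference was 39 pairs without overlap (exact two-sided permutation p = 0.333, n = 2 each), and 5.5 with peaks of fold 4 or more. Over all peaks, 8.56% and 8.45% lay within 1000 bp of a start on their own strand in the shMETTL3 lists, against 7.84% and 7.68% in the shControl lists, a difference of the same sign. Near an end on their own strand lay 5.79% and 6.06% of all peaks in the shMETTL3 lists, against 5.67% and 5.61% in the shControl lists. That difference was opposite in sign to the one in pairs with 2 ends. The part of these background shares in the pair counts was not tested.

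In pairs with 1 start, the summit on the strand opposite to the gene mostly lay downstream of the start. It was upstream in 48 of 146 and 59 of 163 shMETTL3 pairs, against 39 of 119 and 41 of 112 shControl pairs. Its median position was 150 and 134 bp after the start in the shMETTL3 lists, against 137 and 134 bp in the shControl lists. The summit on the gene's own strand lay further in, at a median of 262.5 and 252 bp in the shMETTL3 lists, against 243 and 227 bp in the shControl lists. Its partner had to lie within 1000 bp of it, so a downstream position of the opposite summit partly follows from the definition. Opposite summits near an annotated start on their own strand were counted in another class, which takes out divergent cases. The upstream and downstream counts are therefore a description. Of the other edge pairs, those with 1 end numbered 109 and 108 in the shMETTL3 lists, against 111 and 113 in the shControl lists. A start on 1 strand and an end on the other were found for 24 and 25 pairs in the shMETTL3 lists, against 7 and 13 in the shControl lists. No strand-matched start or end was found for 155 and 172 pairs in the shMETTL3 lists, against 123 and 131 in the shControl lists. Genes without a strand in the promoter table could not be matched, so these pairs may lie at starts or ends of such genes.

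**Figure D2:**
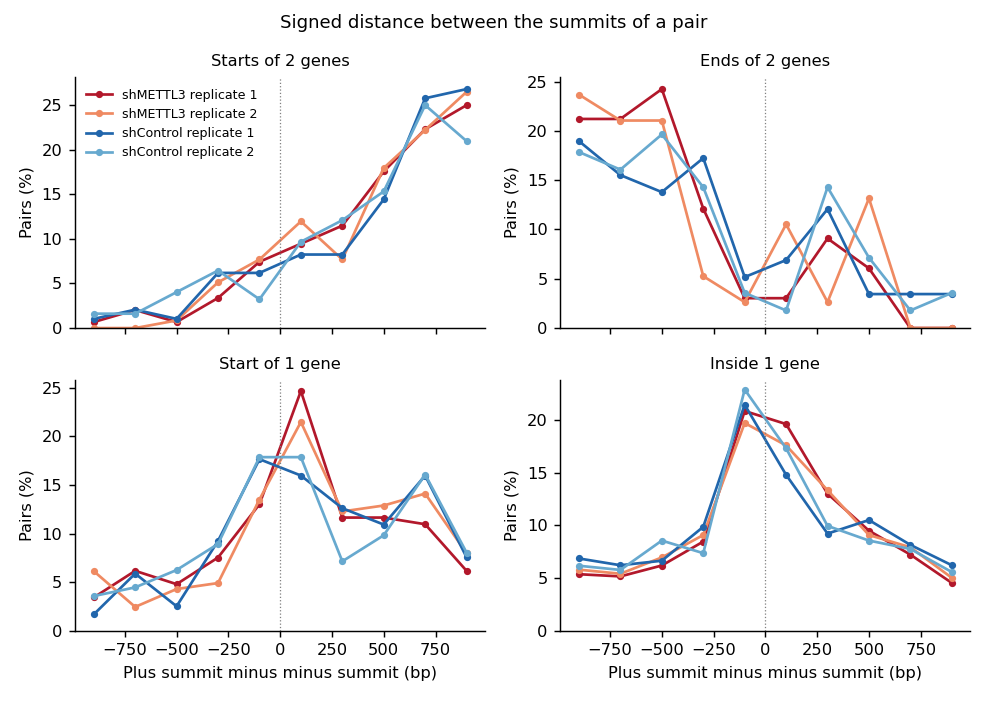
Signed distance between the summits of a pair (horizontal axis, plus summit minus minus summit, bp, in bins of 200 bp) against the percent of pairs of that kind in each of the 4 lists. Pairs at 2 starts pile up to the right of 0 in every list, pairs at 2 ends to the left, and pairs inside 1 gene close to 0.

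Over all pairs the plus summit had the higher coordinate in 58.4% and 57.9% of shMETTL3 pairs, against 53.2% and 53.7% of shControl pairs. The difference was 4.73 points without overlap (exact two-sided permutation p = 0.333, n = 2 each). Inside 1 gene the shares were 53.9% and 53.0% in the shMETTL3 lists, against 48.9% and 49.2% in the shControl lists. Inside 1 gene the peaks of a pair overlapped in 69.0% and 67.1% of shMETTL3 pairs, against 58.2% and 59.96% of shControl pairs.

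Annotated starts lie at 3 of the named edge pairs, which were ranked by their lowest fold percentile among the pairs found in all 4 lists. The ZEB1 pair, on chromosome 10, joins the start of ZEB1, a zinc finger repressor of epithelial genes, to that of its antisense neighbour ZEB1-AS1. Its plus summit (position 31319278) lay 62 bp after the ZEB1 start printed above, and its minus summit (31318515) 580 bp after the ZEB1-AS1 start. The ZEB1-strand peak had folds of 9.56 and 8.53 in the shMETTL3 lists, against 4.43 and 4.38 in the shControl lists. The ZEB1-AS1-strand peak had 7.50 and 5.11 in the shMETTL3 lists, against 4.76 and 4.34 in the shControl lists. On both strands the values of the groups do not overlap, which describes the lists as deposited.

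TRHDE, the ectoenzyme that degrades thyrotropin-releasing hormone, and TRHDE-AS1 overlap at their 5′ ends, so their summits face each other. The plus summit lay 225 bp after the TRHDE start and the minus summit 148 bp after the TRHDE-AS1 start, 766 bp apart. TRHDE-strand folds were 7.32 and 6.13 in the shMETTL3 lists, against 4.53 and 4.67 in the shControl lists. TRHDE-AS1-strand folds were 7.98 and 8.50 in the shMETTL3 lists, against 4.91 and 5.15 in the shControl lists. The values of the groups do not overlap on either strand, again only as a description of the lists.

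NAA11, a catalytic subunit of N-terminal acetylation related to NAA10, had the highest-ranked edge pair, with a lowest fold percentile of 87.4 over its peaks and lists. Its gene-strand summit lay 483 bp after the start and the opposite summit 123 bp after it, so both are within the gene. Gene-strand folds were 6.93 and 8.54 in the shMETTL3 lists, against 6.48 and 5.81 in the shControl lists. Opposite-strand folds were 6.76 and 7.09 in the shMETTL3 lists, against 8.81 and 6.11 in the shControl lists, and these overlapped between the groups.

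Tail-to-tail neighbours are represented by 2 named pairs. GBA2, a non-lysosomal glucosylceramidase, ends opposite CREB3, a membrane-bound transcription factor of the endoplasmic reticulum, on chromosome 9. GBA2-strand folds were 10.7 and 7.74 in the shMETTL3 lists, against 7.25 and 5.64 in the shControl lists. CREB3-strand folds were 6.51 and 5.74 in the shMETTL3 lists, against 5.74 and 5.30 in the shControl lists, so the lowest shMETTL3 value lay next to the highest shControl value. The plus summit (35737578) lay 579 bp beyond the CREB3 end, and the minus summit (35737178) before the GBA2 end. SLIRP, a mitochondrial RNA-binding protein, and SNW1, a splicing and transcription cofactor, end toward each other on chromosome 14, with summits 756 bp apart. SLIRP-strand folds were 5.71 and 6.49 in the shMETTL3 lists, against 5.02 and 5.26 in the shControl lists. SNW1-strand folds were 6.51 and 6.995 in the shMETTL3 lists, against 8.99 and 5.96 in the shControl lists, and these overlapped between the groups.

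Other named edge pairs had no strand-matched start on either side. They lay at NCR3LG1, a ligand of the natural killer receptor NKp30, at IL7, a lymphocyte growth factor, at LGALS3BP, a secreted galectin-binding glycoprotein, and at the pseudogene PMPCAP1. The promoter table gives IL7 and PMPCAP1 no strand, so no start of theirs could be matched. Plus-strand folds of the NCR3LG1 pair were 9.26 and 6.51 in the shMETTL3 lists, against 6.99 and 7.998 in the shControl lists. Its minus-strand folds were 5.13 and 5.68 in the shMETTL3 lists, against 5.01 and 4.59 in the shControl lists. The groups overlapped on the plus strand and not on the minus strand. PMPCAP1 may share reads with its parent gene, which makes its values uncertain.

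**Figure D3:**
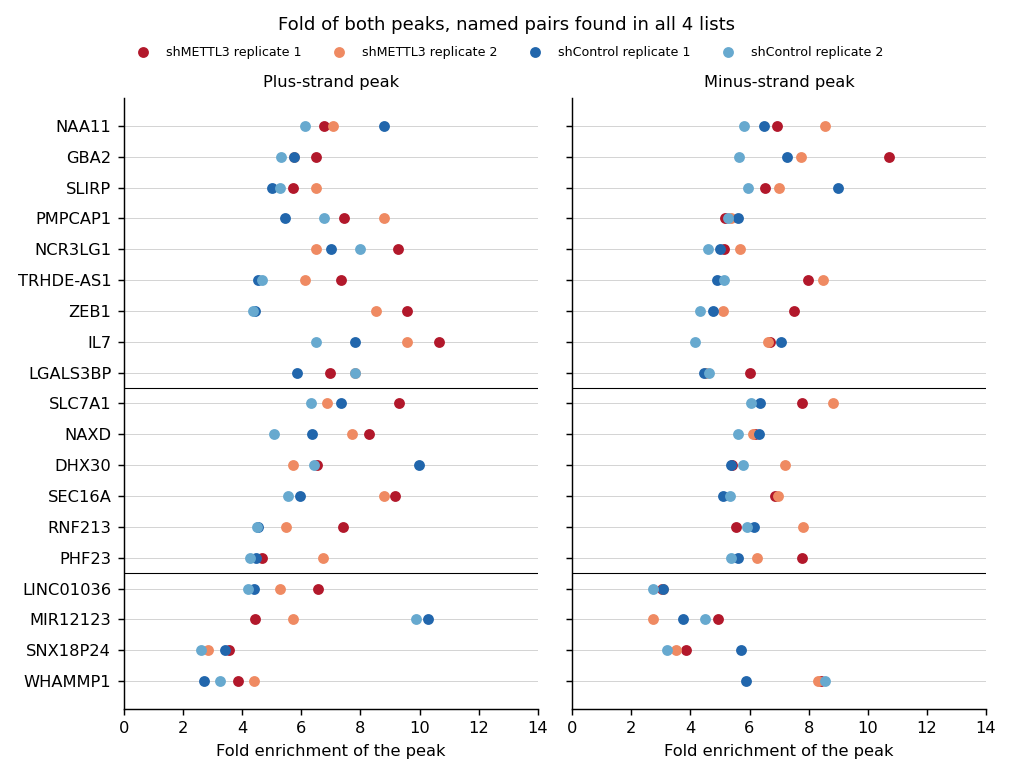
Deposited fold enrichment (horizontal axis, ratio, linear from 0) of the plus-strand and minus-strand peak of named pairs found in all 4 lists, 1 point per list, some hidden under others. Rows above the first line are edge pairs, rows between the lines lie inside 1 gene, and the last 4 lie outside genes and carry the name of the nearest gene.

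Inside single genes, the partner peak lay on the antisense strand, so strand there could be read against the gene. Of peaks inside 1 gene of known strand, 3.47% and 3.55% were antisense in the shMETTL3 lists, against 3.37% and 3.47% in the shControl lists. Of these antisense peaks, 48.6% and 50.1% were paired in the shMETTL3 lists, against 41.4% and 40.3% in the shControl lists. Of the sense peaks, 2.89% and 2.91% were paired in the shMETTL3 lists, against 2.48% and 2.52% in the shControl lists. Since sense peaks far outnumber antisense ones, a higher paired share of the rarer strand follows from how pairs are counted and is no result. The library kit keeps strand, but the share of reads on the wrong strand cannot be read from peak lists, and its part in the antisense peaks was not tested.

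Antisense peaks of these pairs had folds close to those of their sense partners. Over 410 and 418 shMETTL3 pairs the median antisense fold was 4.07 and 4.35, beside sense medians of 3.95 and 4.04. Over 403 and 428 shControl pairs it was 3.89 and 3.69, beside sense medians of 3.89 and 3.62. The antisense peak had the higher fold in 51.7% and 55.5% of shMETTL3 pairs, against 52.1% and 51.9% of shControl pairs. Their −log10 q values were not compared over these pairs, so nearness to the calling threshold is not shown.

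The named pairs inside genes show close summits. SLC7A1, the cationic amino acid transporter CAT1, had summits 21 bp apart (29514107 on plus and 29514086 on minus, chromosome 13). Its antisense (plus) folds were 9.31 and 6.87 in the shMETTL3 lists, against 7.33 and 6.31 in the shControl lists. Its sense folds were 7.76 and 8.81 in the shMETTL3 lists, against 6.35 and 6.04 in the shControl lists, without overlap. RNF213, a large ubiquitin ligase with an ATPase core, had summits 10 bp apart. Its sense folds were 7.40 and 5.50 in the shMETTL3 lists, against 4.54 and 4.49 in the shControl lists. Its antisense folds were 5.55 and 7.81 in the shMETTL3 lists, against 6.17 and 5.92 in the shControl lists. Antisense folds at RNF213 overlapped between the groups, and sense folds did not. The other named ones lay in NAXD, which repairs hydrated NADH, in the RNA helicase DHX30, in SEC16A, a scaffold of endoplasmic reticulum exit sites, and in PHF23, a PHD finger protein. Their summits were 219, 148, 291 and 81 bp apart.

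Pairs outside genes were few, and the named ones ranked below the other named pairs of all 4 lists. The lowest fold percentile of the 4 named ones lay between 16.3 and 20.3. They were drawn from 13 outside pairs, where 188 edge pairs and 161 pairs inside 1 gene were ranked. Their rank is therefore no measure of the class. Nearest genes were LINC01036, 19705 bp away, MIR12123, 56727 bp away, SNX18P24, 10884 bp away, and the transcribed pseudogene WHAMMP1, 1782 bp away. The LINC01036 neighbour had plus folds of 6.57 and 5.28 in the shMETTL3 lists, against 4.39 and 4.21 in the shControl lists. Its minus folds were 3.04 and 3.08 in the shMETTL3 lists, against 3.07 and 2.72 in the shControl lists. The pairs near SNX18P24 and WHAMMP1 lie among pseudogenes, where reads may come from similar copies, and their values are uncertain.

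Peaks of the 4 lists were then merged by strand at 1 bp overlap into 66409 loci, of which 3370 were paired in at least 1 list, as 2086 locus pairs. Of these, 373 (17.9%) were pairs in all 4 lists, 235 in 3, 656 in 2 and 822 in 1. Both shMETTL3 lists held 779 and both shControl lists 759. Of the 373, 188 lay near a gene edge, 161 inside 1 gene, 11 inside several genes and 13 outside genes.

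The shares of absent loci are set beside those over all loci. Of loci of shMETTL3 pairs, 248 of 1365 (18.2%) had no peak in either shControl list, where the share over all 33195 loci of both shMETTL3 lists was 18.9%. Of loci of shControl pairs, 227 of 1308 (17.4%) had no peak in either shMETTL3 list, where the share over all 36660 loci of both shControl lists was 22.6%. The first is near the background and no result about pairs. Of the other 35352 loci of both shControl lists, 22.8% were absent.

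Pairs of 1 group were then looked up in the other. Of 779 pairs of both shMETTL3 lists, 24 (3.08%, 95% Wilson interval 2.08 to 4.54) had neither peak in either shControl list, and 259 (33.2%, 30.03 to 36.6) had exactly 1 of the 2 loci absent from both. Of 759 pairs of both shControl lists, 44 (5.80%, 4.35 to 7.69) had neither peak in either shMETTL3 list, and 205 (27.0%, 24.0 to 30.3) had 1 absent. Both peaks were in both lists of the other group for 389 of the shMETTL3 pairs (49.9%) and 397 of the shControl pairs (52.3%). With peaks of fold 4 or more, the shares with neither peak were 7.48% of shMETTL3 pairs and 3.33% of shControl pairs, so their order depends on this filter. No share over all loci was set beside these counts of pairs, and they are descriptions. Intervals cover counting error only, and pairs that share a locus are not independent.

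The side that was missing was mostly the antisense one. Inside 1 gene of known strand, 280 pairs of both shMETTL3 lists had the antisense locus absent from both shControl lists in 92 (32.9%) and the sense locus in 10 (3.57%). Of 307 pairs of both shControl lists, the antisense locus was absent from both shMETTL3 lists in 95 (30.9%) and the sense locus in 35 (11.4%). The antisense share was the higher whichever group the pairs came from, by 29.2 points for shMETTL3 pairs and 19.5 points for shControl pairs. At pairs with 1 start the same counts were 26 antisense and 12 sense of 96 shMETTL3 pairs, against 18 and 10 of 81 shControl pairs. No test over loci was made.

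Unpaired loci inside genes give the comparison. Of paired antisense loci of both shMETTL3 lists, 76 of 240 (31.7%) were absent from the shControl lists, beside 75 of 280 (26.8%) of unpaired ones. Of paired sense loci of the same lists, 10 of 272 (3.68%) were absent, beside 2909 of 16687 (17.4%) of unpaired ones. Of paired antisense loci of both shControl lists, 69 of 239 (28.9%) were absent from the shMETTL3 lists, beside 164 of 395 (41.5%) of unpaired ones. Of paired sense loci of these lists, 35 of 296 (11.8%) were absent, beside 4348 of 19110 (22.8%) of unpaired ones. Antisense loci thus had the higher absent share with or without a partner, and paired sense loci the lowest in both directions. Peak strength can differ between the strands. In RNF213 the median −log10 q was lower for antisense peaks in every list, as 39.4 beside 52.9 for sense peaks in shControl replicate 1. In THBS1 it was higher for antisense peaks in the shMETTL3 lists, 55.0 and 45.1 beside 40.5 and 29.5, and lower in the shControl lists. The part of peak strength in the absent shares was not tested.

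**Figure D4:**
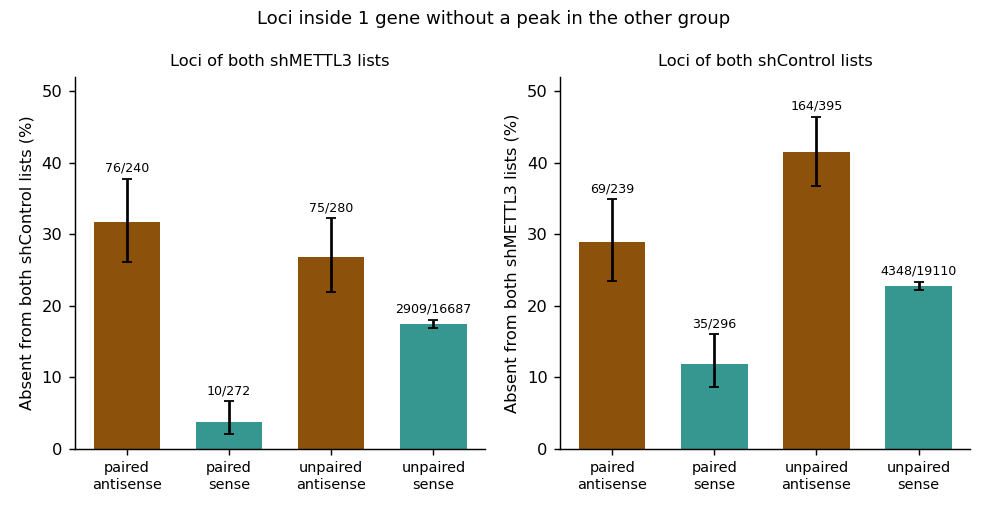
Percent of loci inside 1 gene that had no peak in either list of the other group (vertical axis, from 0), for loci of both shMETTL3 lists on the left and of both shControl lists on the right, with 95% Wilson intervals and counts. Paired sense loci are lowest in both panels (3.68% and 11.8%), and antisense loci, paired or not, lie between 26.8% and 41.5%.

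The named pairs with 1 kept and 1 missing locus show both directions. At GOLGA3, a golgin, the sense locus was in all 4 lists, with folds of 5.36 and 5.53 in the shMETTL3 lists, against 3.898 and 3.58 in the shControl lists. Its antisense locus (132774102 to 132774280, chromosome 12) had 6.05 and 5.77 in the shMETTL3 lists and no peak in the shControl lists. TGIF2, a homeobox repressor in TGF-beta signalling, likewise had an antisense peak only in the shMETTL3 lists (5.97 and 5.63). Its sense peak had 9.11 and 7.91 in the shMETTL3 lists, against 5.91 and 6.31 in the shControl lists. ZBTB45, a zinc finger protein, had its antisense peak only in the shControl lists (6.79 and 6.82), beside a sense peak of 4.49 and 3.61 in the shMETTL3 lists, against 7.32 and 7.04 in the shControl lists. Between TIMM22, a translocase of the mitochondrial inner membrane, and ABR, a protein related to BCR, the TIMM22-strand peak was in the shControl lists only (5.41 and 5.43). The ABR-strand peak there had 7.05 and 5.07 in the shMETTL3 lists, against 7.81 and 6.405 in the shControl lists.

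Whole pairs in 1 group only were named by the same ranking. In the shMETTL3 lists only were pairs in PARP8, an ADP-ribosyltransferase family member (plus folds 6.88 and 7.46, minus 4.91 and 5.90), in ING1, a chromatin reader, at the PKP4 start and at the start of CMTM8. In the shControl lists only were pairs in C13orf46 (plus folds 7.92 and 4.42, minus 4.56 and 4.12), in LRRTM4, a synaptic adhesion protein, at the TNC start and at the start of RRN3, an initiation factor of RNA polymerase I. At the start of TNC, the matrix protein tenascin C, the gene-strand peak had 11.3 and 11.5 in the shControl lists and the opposite one 3.64 and 3.83.

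Several genes held many pairs, and 6 were picked after their values were seen. Inside 460 genes, leaving out 1 gene, lay at least 1 pair, in 133 of them a pair of all 4 lists, and 74 had 3 or more locus pairs. Pairs in both shMETTL3 lists and no shControl list were held by 76 genes, and the reverse by 48. Over all loci, 18.9% of those in both shMETTL3 lists had no peak in a shControl list, and 22.6% in the reverse case, so these gene counts are read as no result about pairs. SPTBN1, the membrane skeleton protein beta-II spectrin, had 2 and 2 inside pairs in the shMETTL3 lists, against 11 and 12 in the shControl lists. It had 1 and 1 antisense peaks in the shMETTL3 lists, against 10 and 12 in the shControl lists. Its sense peaks numbered 31 and 32 in the shMETTL3 lists, against 36 and 35 in the shControl lists. Its antisense peaks in the shControl lists spread between positions 54558524 and 54668728 of chromosome 2.

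TNC had no inside pair in the shMETTL3 lists, against 9 and 6 in the shControl lists. Its antisense peaks were 0 and 0 in the shMETTL3 lists, against 6 and 5 in the shControl lists. Its sense peaks were 11 and 10 in the shMETTL3 lists, against 29 and 29 in the shControl lists, so both strands had fewer peaks in the shMETTL3 lists. THBS1, the matrix protein thrombospondin 1, had 4 and 6 pairs in the shMETTL3 lists, against 15 and 12 in the shControl lists. It had 5 and 6 antisense peaks in the shMETTL3 lists, against 7 and 6 in the shControl lists, and 12 and 12 sense peaks in the shMETTL3 lists, against 20 and 19 in the shControl lists. In THBS1 it was thus the sense side that held fewer peaks in the shMETTL3 lists.

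Other genes had more pairs in the shMETTL3 lists. AMOTL2, an angiomotin family protein of Hippo signalling, had 9 and 11 pairs in the shMETTL3 lists, against 1 and 1 in the shControl lists. Its antisense peaks numbered 5 and 5 in the shMETTL3 lists, against 1 and 1 in the shControl lists, and its sense peaks 13 and 12 in the shMETTL3 lists, against 11 and 9 in the shControl lists. EEF2, the translation elongation factor, had 7 and 5 pairs in the shMETTL3 lists, against 0 and 2 in the shControl lists. It had 4 and 6 antisense peaks in the shMETTL3 lists, against 2 and 2 in the shControl lists, and 7 and 5 sense peaks in the shMETTL3 lists, against 10 and 9 in the shControl lists. Its sense side thus held fewer peaks where its antisense side held more. PRRC2B, an RNA-binding protein of translation, had 6 and 7 pairs in the shMETTL3 lists, against 2 and 2 in the shControl lists. It had 6 and 5 antisense peaks in the shMETTL3 lists, against 2 and 2 in the shControl lists, and 19 and 18 sense peaks in the shMETTL3 lists, against 24 and 29 in the shControl lists. In all 3 the antisense counts of the groups did not overlap. These genes were picked with their pair counts known, and an inside pair needs an antisense peak. The antisense counts therefore partly follow from the choice and are no result. Over all genes of known strand, antisense peaks numbered 997 and 999 in the shMETTL3 lists, against 1006 and 1088 in the shControl lists. Less RNA of a gene and less m6A on it cannot be told apart from these peak lists.

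**Figure D5:**
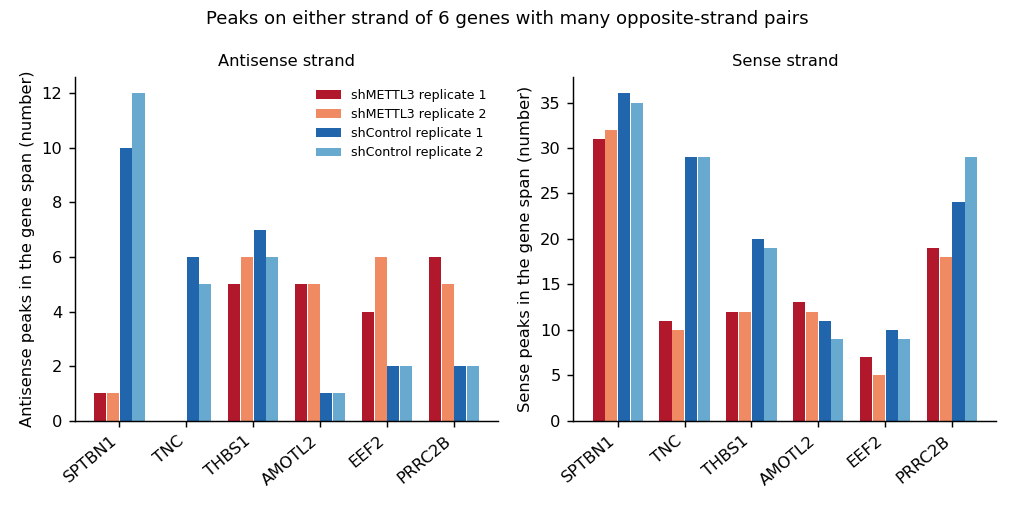
Number of antisense and sense peaks (vertical axes, from 0, on different scales) inside the spans of 6 genes in each of the 4 lists. SPTBN1 and TNC have more antisense peaks in the shControl lists, AMOTL2, EEF2 and PRRC2B more in the shMETTL3 lists, and THBS1 overlaps.

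Textbook neighbours were looked up in 2 lists of genes. Of 37 head-to-head genes, 24 had a peak and 3 a pair within 1000 bp, none of them in all 4 lists. Among them was FEN1, the flap endonuclease of replication, with a pair in 1 shMETTL3 list. At FEN1 the gene-strand peak was in every list, with folds of 6.32 and 6.20 in the shMETTL3 lists, against 7.75 and 8.44 in the shControl lists, and the antisense peak of 4.12 in a single one.

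Of 26 genes of overlapping antisense or tail-to-tail couples, 20 had a peak, 9 a pair and 5 a pair in all 4 lists. A pair was thus found in 45% of these 20 genes and 12.5% of the 24 head-to-head genes, against 10.9% of all 14107 genes with a peak. Neighbours that share a pair count as separate genes here, as MALAT1 with TALAM1 and DHPS with WDR83 do, so the 9 genes are fewer separate places. The pair of SMAD5 lay inside the gene and away from SMAD5-AS1. The 5 include MALAT1, its antisense RNA TALAM1, and SMAD5, a transducer of BMP signals.

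MALAT1, an abundant nuclear long noncoding RNA, had plus-strand folds of 1.58 and 1.36 in the shMETTL3 lists, against 1.42 and 1.28 in the shControl lists, with a lowest fold percentile of 0.006. The opposite peak, on the TALAM1 strand, had 2.48 and 2.65 in the shMETTL3 lists, against 2.02 and 2.12 in the shControl lists, with summits 346 bp apart. The pair in SMAD5 had gene-strand folds of 4.49 and 4.95 in the shMETTL3 lists, against 4.89 and 5.16 in the shControl lists. Its antisense folds were 3.65 and 4.46 in the shMETTL3 lists, against 3.56 and 3.35 in the shControl lists. HIF1A, the hypoxia factor, shared a pair with HIF1A-AS1 at its start in 1 list of each group. Another pair, where HIF1A overlaps HIF1A-AS3, was in both shMETTL3 lists. Its minus-strand peak had folds of 2.64 and 2.82 there and was in neither shControl list. NUDT6, a Nudix hydrolase gene that overlaps FGF2, shared a pair with the start of AFG2A in 1 shControl list. DHPS, deoxyhypusine synthase, and WDR83, a scaffold protein that ends against it, shared a pair in 1 shMETTL3 list and both shControl lists.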

How the data were processed

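Each library has its own deposited narrowPeak list, and the peak names show that calling was done for each strand alone. Tools in the submitters' processing notes are MACS2 2.2.7.1, HISAT2 2.1.0, Bowtie2 2.4.2, SAMtools and Trim Galore 0.6.6, with the build hg38. How peak calling used the input and the spike-in was not given in the sources used here. Fold enrichment is a ratio deposited by the authors. The deposited p-value and q-value columns hold −log10 values (smallest −log10 q 2.00), the deposited score was not used, and the narrowest peak was 150 bp. Read depth is unknown.

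Summits are the deposited start plus the summit offset. Pairs were classed against spans of 59712 RefSeq genes (GRCh38.p14), with strands for the 27304 genes of the promoter table; exons were not used here. Library values were compared by exact two-sided permutation, and shares have 95% Wilson intervals. Python 3.11.15, pandas 2.3.3, numpy 2.4.6, scipy 1.17.1 and matplotlib 3.10.9 were used, and the pairing code was tested on simulated data. Members, gene lists and rules were chosen with earlier results of these data known.

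Named pairs were ranked by the lowest fold percentile over both peaks in the lists that hold the pair: 10 edge, 6 inside and 4 outside pairs of all 4 lists, 4 of each group alone and 4 with 1 locus in a single group, without LOC symbols. METTL3 and the members of 2 gene lists with a pair were added. A few of the named items are not reported here. Alternatives changed the distance, the edge window, the gene set, peak filters, list lengths, the pair definition, the overlap of loci and each library.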

Additional observations from a re-analysis of the deposited data

How the results depend on the processing

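Of 207 alternative values, 166 were counted as the same, 25 as moved and 16 as changed in sign, and with 2 libraries a group none could pass the threshold. For tested differences the same meant the same sign, though not always the same size. For untested shares it meant a value within the interval or the SD of the main value, and moved meant outside it. The paired share was larger in the shMETTL3 lists by 0.622 to 0.844 points when a library was left out, and the number of pairs by 93.5 to 153.5. With the replicate number as a block these differences were 0.733 points and 116 pairs (exact sign-flip p = 0.5 each). Deviations of same-numbered libraries were uncorrelated over 23691 loci (0.0028). With 2 libraries a group this cannot show whether same-numbered libraries were handled together. The edge share difference was -5.84 points and the share inside 1 gene 4.01 points with a fold of at least 4, against 2.58 and -2.75 points. The median fold difference was -0.0124 at 2000 bp, -0.0433 with fold 4 and -0.130 with −log10 q of 20. The small class inside several genes reversed at 500 bp (-0.248 points), with mutually nearest peaks (-0.730) and an edge window of 500 bp (-0.207). Outside genes the difference of -0.03 points became 0.482 at 500 bp, 0.131 with mutually nearest peaks, 0.0544 and 0.0714 with edge windows of 500 and 2000 bp, 0.258 with genes of at least 500 bp and 0.888 with protein-coding genes, and ran from -0.284 to 0.230 without 1 library. The mean edge share over the lists was 43.2% and 54.2% at 500 and 2000 bp, 51.3% with fold 4, 47.4% with −log10 q of 20, 39.2% and 61.2% with edge windows of 500 and 2000 bp, 41.4% with protein-coding genes and 46.9% with lncRNA genes added. The mean share of pairs with the plus summit higher was 52.8% at 500 bp. Pairs of both shMETTL3 lists with neither peak in the shControl lists were 7.48% with fold 4, 5.12% with −log10 q of 20, 5.45% at 50% reciprocal overlap and 4.06% to 5.94% without 1 library. The reverse share was 3.33%, 3.53%, 9.23% and 7.70% to 8.03%, so which group had more of them depends on the peak filter. The excess of absent antisense over absent sense loci ran from 31.9 to 37.3 points for shMETTL3 pairs and 18.9 to 27.9 for shControl pairs without 1 library. With a library left out, presence or absence in its group was judged from a single list. This excess and the shares with neither peak then follow a looser rule than the main values. The lncRNA gene set, the settings of this excess and of the pairs with 1 start or 2 ends, and some peak filters and left-out libraries were added after seeing the data. Of 32 named pairs, 21 were in as many lists at 500 bp, 25 with −log10 q of 20 and 23 with fold 4. The causes were not tested.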

Other observations

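AHNAK, a giant scaffold protein encoded on the minus strand of chromosome 11, stood out after its values were seen, since its span held more antisense than sense peaks in every list. Antisense peaks numbered 12 and 17 in the shMETTL3 lists, against 16 and 15 in the shControl lists, and sense peaks 5 and 5 in the shMETTL3 lists, against 7 and 7 in the shControl lists. Few of the antisense peaks had a sense peak within 1000 bp, 1 and 3 in the shMETTL3 lists, against 5 and 5 in the shControl lists. The groups overlapped in antisense peaks and did not overlap in paired ones or in sense peaks. In a gene picked by its values this is only a description. Over all genes of known strand the paired share had the other order. There 48.6% and 50.1% of antisense peaks were paired in the shMETTL3 lists, against 41.4% and 40.3% in the shControl lists. Whether another transcript crosses AHNAK was not tested.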
